A study of Mus musculus with 7 samples.

Results

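The loci described here are those of 8 mouse genes for enzymes and cofactors of DNA methylation and demethylation, *Dnmt1*, *Uhrf1*, *Dnmt3a*, *Dnmt3b*, *Dnmt3l*, *Tet1*, *Tet2* and *Tet3*, out of 21938 protein-coding genes. Every called ATAC-seq peak within 20 kb of the gene body of a member was taken, and touching or overlapping peaks of all libraries were merged into regions. This gave 81 of the 104248 merged regions of the genome, all on mm10. Of these, 23 lay within 1 kb of the start of an annotated transcript of the member and are called promoter regions, 35 others lay in the gene body and are called intragenic, and 23 lay outside it and are called flanking. ATAC-seq cuts nuclei with Tn5 transposase, so that a called peak marks chromatin open to the enzyme. The widths given below are the summed widths of the called peaks of a library in a region, which was 1 peak in all but 17 of 266 cases, and there it was 2 peaks, whose widths are given where the region is described.

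The libraries follow mouse embryonic fibroblasts (MEFs), prepared from mid-gestation embryos without head, heart and liver, through cellular reprogramming. The MEFs carry a tetracycline-controlled cassette of *Pou5f1*, *Klf4*, *Sox2* and *Myc* (OKSM) at *Col1a1*, with the transactivator rtTA*M2 placed in ROSA26, and the day 0 MEFs carry these alleles too. Cells were taken before induction (day 0) and after doxycycline (2 µg/mL) had been given for 1, 2, 3, 6 or 9 days. The 7th library is from untreated embryonic stem cells (ESCs), given as the Bruce-4 line in the culture protocol, although the genotype entered for it repeats that of the MEFs. Each time-point has 1 library, so no difference below has a replicate check and no test between libraries was possible. Each library was made from bulk cells, so a peak in fewer cells and a weaker opening in every cell cannot be told apart.

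DNA methylation is written and removed by a few enzymes. DNMT1 copies methylation to the new strand after replication and is brought to hemimethylated DNA by UHRF1. DNMT3A and DNMT3B place new methylation, and DNMT3L, which has no catalytic activity, stimulates them in germ cells and early embryonic cells. The TET proteins oxidise 5-methylcytosine, the opening step of active demethylation. In mouse, DNMT3B, DNMT3L and TET1 are known as abundant proteins of pluripotent cells.

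The peak lists were of unequal length, from 27074 peaks in ESCs to 61241 on day 0, although the reads had been brought to a common depth that is not stated in the sources used here. The lists hold no score, so the reads behind a peak are unknown and the lack of a called peak does not show that the site was closed. The labels were compared with cell type markers at their promoters. The day 0 library had a promoter peak at 7 of 8 fibroblast genes and the ESC library at 1 of 8, *Twist1*. Of 10 ESC genes, the ESC library had a promoter peak at 4 (*Pou5f1*, *Esrrb*, *Zfp42* and *Fgf4*) and none at *Nanog* or *Sox2*, whereas the day 0 library also had 4. Of 6 genes of blood, endothelial and epithelial cells, day 0 had a peak at 3 (*Cd34*, *Cdh5* and *Pecam1*) and the other libraries at 0 or 1. The part of these differences in the results below was not tested.

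At the promoters, within 1 kb of a start, the maintenance and TET genes had a peak in every library, and the *Dnmt3* genes had none in ESCs. A promoter peak was called at 8 of 8 members on day 0 and on day 1, against 59.7% and 55.8% of all protein-coding genes. The count was 7 of 8 on days 2, 3, 6 and 9, where *Dnmt3l* had none, against 51.6%, 56.4%, 57.4% and 53.4%. In ESCs it was 5 of 8, a share of 62.5% with an exact 95% interval of 24.5 to 91.5%, against 50.3%. *Dnmt1*, *Uhrf1*, *Tet1*, *Tet2* and *Tet3* had a promoter peak in all 7 libraries, a pattern shared by 42.6% of all genes. *Dnmt3a*, *Dnmt3b* and *Dnmt3l* had one on day 0 and none in ESCs, which held for 12.1% of all genes. No member had one in ESCs and none on day 0, which held for 2.72% of all genes, and the exact 95% interval of 0 of 8 reaches 36.9%. With a window of 2500 bp the ESC count was 7 of 8, and *Dnmt3b* alone had none. ESC peaks lay 1343 bp from the Dnmt3a-205 start, 1123 bp from the Dnmt3l-201 start and 1188 bp from the Dnmt3l-205 start. These counts take any annotated start, and the members have 5 to 18 starts each with a median of 7, against a median of 3 over all genes. With the 5′ end of the gene record alone, the counts were 4 of 8 on each day of the MEF-derived libraries (*Dnmt3a*, *Dnmt3b*, *Tet2* and *Uhrf1*) and 2 of 8 in ESCs (*Tet2* and *Uhrf1*).

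**Figure D1:**
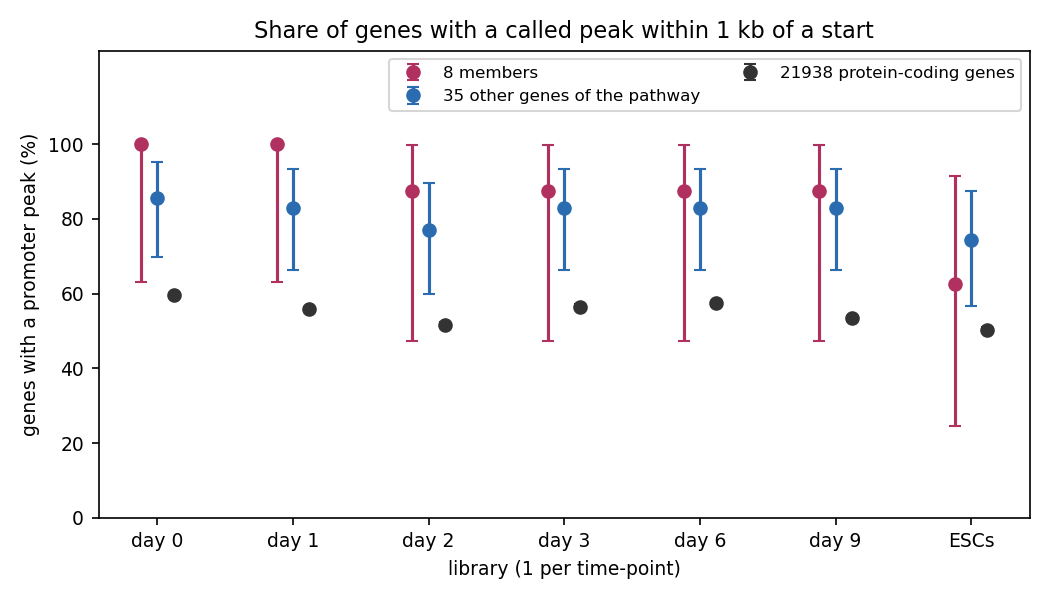
Percent of genes (y axis) with a called peak within 1 kb of an annotated start in each of the 7 libraries (x axis), for the 8 members, 35 other genes of the pathway and 21938 protein-coding genes, with exact 95% intervals as bars. The members lie between 62.5% in ESCs and 100% on days 0 and 1, and their wide bars overlap those of the other genes of the pathway.

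Over the 81 regions, a peak was called in 50 for day 0, in 39, 33, 42, 41 and 35 for days 1, 2, 3, 6 and 9, and in 26 for ESCs. The same count over all merged regions was 56.4%, 41.1%, 29.5%, 43.3%, 40.2%, 29.7% and 24.9%, so the order of the libraries at the 8 loci was nearly that of the whole lists. By pattern, 17 of the 81 regions had a peak in every library and 31 had one on day 0 and none in ESCs. A further 7 had a peak in ESCs and none on day 0, 2 were called both at day 0 and in ESCs but not in all libraries, and 24 were transient, with a peak only on doxycycline days. Over all merged regions these patterns made up 9.74%, 44.4%, 12.9%, 2.31% and 30.7%. When the 27074 widest peaks of each library were used, the counts were 27 regions on day 0 and 26 in ESCs, and 13 regions had a peak on day 0 without ESCs against 12 in ESCs without day 0. With lists of equal length, the counts of day 0 and ESCs at these loci were thus close.

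The classes differed in pattern. Of the 23 promoter regions, 6 had a peak in every library, 12 on day 0 without ESCs, 0 in ESCs without day 0 and 5 were transient, against 43.6%, 27.9%, 7.52% and 14.8% of the promoter regions of all protein-coding genes. The count of 0 of 23 allows a share of up to 13.0%. Of the 35 intragenic regions, 1 had a peak in every library, 13 on day 0 without ESCs, 7 in ESCs without day 0 and 14 were transient, against 1.71%, 48.2%, 12.2% and 36.4% of all intragenic regions. All 7 regions with an ESC peak and no day 0 peak were intragenic by the starts of the member itself. The background regions were classed by the starts of all protein-coding genes. By that rule the *Dnmt3l* intron 1 region, at the start of *Aire*, would be a promoter region, so the compared classes are not quite alike. In 1 library alone lay 8 of the 23 promoter regions, 22 of the 35 intragenic and 6 of the 23 flanking regions, 13 of them on day 0 and 6 in ESCs. These were 13 of the 50 regions with a day 0 peak and 6 of the 26 with an ESC peak, against 42.4% and 39.1% of all regions with a peak in those libraries. Regions on day 1 alone were 5 of the 39 with a peak that day, against 5128 of 42811 over all regions. On days 2, 3, 6 and 9 they were 1 of 33, 4 of 42, 5 of 41 and 2 of 35. The matching shares of all regions were 5.13%, 11.1%, 10.3% and 5.84%. For all regions these shares were taken by library and not by class, so the class counts have no background here.

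**Figure D2:**
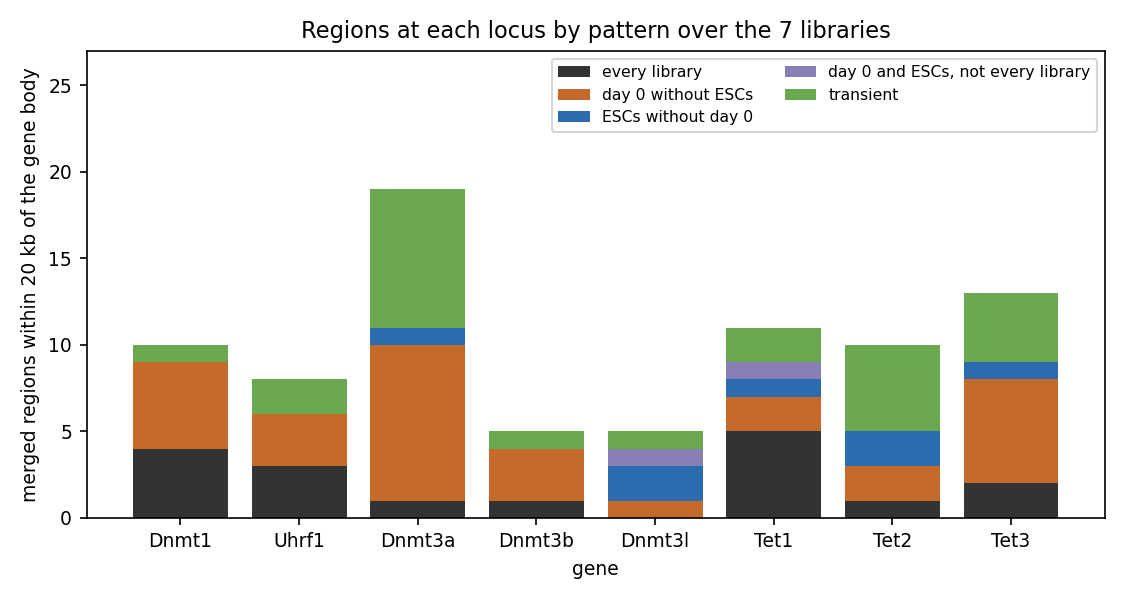
Number of merged regions within 20 kb of the gene body (y axis) for each of the 8 genes (x axis), stacked by the pattern of called peaks over the 7 libraries. *Dnmt3a* has the most regions with 19, *Tet1* has 5 regions with a peak in every library, and *Dnmt3b* and *Dnmt3l* have 5 regions each.

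The maintenance genes kept a promoter peak throughout. The *Dnmt1* promoter region (chr9:20952335-20953215), over exon 1 and the start of the principal transcript Dnmt1-201, had peaks of 619 bp on day 0, 783, 619, 512, 867 and 722 bp on days 1, 2, 3, 6 and 9, and 572 bp in ESCs. The start of Dnmt1-201 lay under a peak in 7 of 7 libraries. The other *Dnmt1* promoter region (chr9:20951403-20951913), in intron 1, had a peak of 511 bp on day 0 alone. Inside *Dnmt1*, 2 regions of intron 1 had a day 0 peak and none in ESCs, chr9:20943590-20944062 (270 bp on day 0, 403 bp on day 6) and chr9:20945971-20946504 (377 bp on day 0, 223 bp on day 3).

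*Uhrf1* has neighbouring starts in separate regions that differed in ESCs. The region over the start of Uhrf1-201, the principal transcript (chr17:56303009-56303663), had peaks of 623 bp on day 0, 537, 478, 468 and 365 bp on days 1, 2, 3 and 6, 2 peaks of 211 and 256 bp on day 9, and none in ESCs. In ESCs the nearest peak was 627 bp away, in the next region (chr17:56303861-56304515) over the start of Uhrf1-202 in intron 1 of Uhrf1-201. That region had peaks of 532, 567, 538, 576, 638 and 562 bp from day 0 to day 9 and 568 bp in ESCs. The MEF-derived libraries therefore had a peak in both regions and the ESC library in that of Uhrf1-202 alone. By the 1 kb rule used for promoters, the Uhrf1-201 start nevertheless had a peak in all 7 libraries. The 2 regions lie less than 300 bp apart, so the contrast depends on keeping them separate, and merging within 300 bp joins them. A promoter region at exon 11 (chr17:56316678-56317354) was transient, with peaks on days 1 (445 bp) and 3 (677 bp).

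The de novo methyltransferase genes had their main promoter peaks in all MEF-derived libraries and none in ESCs. The *Dnmt3b* promoter region (chr2:153649241-153650029) covers exon 1 and the start of its principal transcript, Dnmt3b-210. Its peaks were 600 bp on day 0, 586, 591, 638 and 722 bp on days 1, 3, 6 and 9, and 232 and 311 bp on day 2, where there were 2. None was called in ESCs. The nearest ESC peak to the start was 16438 bp away, at the start of *Commd7*, where all 7 libraries had a peak. The *Dnmt3b* pattern was the same with peaks at least 300 bp wide, with the same number of widest peaks and with peaks that together cover at least 50% of the region. The 2 other promoter regions, in intron 8 beside the Dnmt3b-212 start, had narrow peaks on day 0 (chr2:153668687-153668887, 201 bp) and on days 0, 6 and 9 (chr2:153668961-153669189, 204, 205 and 200 bp). *Dnmt3b* had no intragenic region. Its germline relative *Dnmt3c* had no promoter peak in any library.

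The 250 bases before the *Dnmt3b* start are shown because the promoter peak of the MEF-derived libraries and its absence in ESCs concern this sequence, which was chosen after its values were seen. It is from RefSeq on GRCm38.p6, plus strand, chr2:153649199-153649448, and capitals mark 3 matches of GGGCGG, the core of the Sp motif, on either strand, 2 of which adjoin in 1 run of capitals.
Dnmt3b promoter: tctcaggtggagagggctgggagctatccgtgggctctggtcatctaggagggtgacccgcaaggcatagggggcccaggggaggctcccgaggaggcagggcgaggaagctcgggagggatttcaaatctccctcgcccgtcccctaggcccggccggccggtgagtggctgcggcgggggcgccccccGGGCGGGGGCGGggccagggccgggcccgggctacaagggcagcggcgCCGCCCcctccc
The same motif lies in the 250 bases before the start of 32.7% of the 32851 RefSeq promoters.

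*Dnmt3a*, the longest gene of the 8, had the most regions, 19, of which 4 were promoter and 12 intragenic. Per 100 kb, flanks included, *Uhrf1* had 13.3 regions and *Dnmt3a* 12.8, against a median of 6.29 over all protein-coding genes. The region over the upstream starts of *Dnmt3a* (chr12:3806197-3807199) had peaks of 770 bp on day 0, 392, 286, 275, 986 and 271 bp on days 1, 2, 3, 6 and 9, and none in ESCs. It was wide on days 0 and 6 and narrow on days 2, 3 and 9, and with peaks at least 300 bp wide it remained in 3 libraries, those of days 0, 1 and 6. The nearest ESC peak to the start of Dnmt3a-201, the principal transcript, was 14760 bp away. A promoter region in intron 4 near the Dnmt3a-211 start (chr12:3866594-3867199) was transient, with 582 bp on day 1, 252 bp on day 6, 2 peaks of 209 and 261 bp on day 3 and 2 peaks of 237 and 203 bp on day 9. The other 2 promoter regions, near the Dnmt3a-209 start in intron 6, had peaks of 200 bp (chr12:3894518-3894717) and 280 bp (chr12:3894778-3895057) on day 0 alone.

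Together with *Dnmt3b*, *Dnmt3a* and *Uhrf1*, the *Tet3* promoter made 4 of 23 promoter regions with a peak on day 0 and on every doxycycline day and none in ESCs, a pattern of 6.12% of all promoter regions. With peaks at least 300 bp wide, 1 of the 4, *Dnmt3b*, kept this pattern, with the same number of widest peaks 3 did, and with peaks that together cover at least 50% of the region 2 did. With that cover the regions of *Dnmt3a* and *Tet3* were counted in 2 libraries each. The *Uhrf1* region was counted among the 4 although the Uhrf1-201 start had an ESC peak within 1 kb, in the next region. Merging within 300 bp joins these *Uhrf1* regions. The 300 bp centres of the 4 had CpG observed over expected ratios of 1.21 (*Dnmt3b*), 0.894 (*Dnmt3a*), 0.645 (*Uhrf1*) and 0.930 (*Tet3*). The median was 0.752 over the 6 promoter regions of the members with a peak in every library and 0.811 over all 10157 regions of the genome with that pattern. Of the 4, *Dnmt3b*, *Dnmt3a* and *Tet3* lay above both medians and *Uhrf1* below.

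Inside *Dnmt3a*, intron 3 held a region (chr12:3855639-3856539) with peaks of 457 bp on day 0, 867, 607, 638, 496 and 655 bp on days 1, 2, 3, 6 and 9, and none in ESCs. It was the intragenic region of *Dnmt3a* with a peak in the most libraries, 6, and none of the 3 other settings on peak width and cover altered this. The 4 other intragenic regions with a day 0 peak and no ESC peak had peaks in 1 to 3 libraries (chr12:3825065-3825264, chr12:3834520-3835102, chr12:3843306-3843762 and chr12:3887530-3888069). A transient region of intron 1 (chr12:3823070-3823835) had peaks of 482, 370 and 201 bp on days 1, 3 and 6. The ESC library alone had a peak of 393 bp in intron 6 (chr12:3889993-3890385).

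*Dnmt3l* had no peak within 1 kb of the start of its principal transcript, Dnmt3l-205, in any library. Its promoter peaks lay at downstream starts, with 497 bp on day 0 alone in intron 9 (chr10:78054565-78055061) and 315 bp on day 1 alone in intron 10 (chr10:78055337-78055651). The ESC library alone had 2 peaks in the gene body. The peak of 462 bp in intron 2 (chr10:78048258-78048719) lay 1123 bp before the Dnmt3l-201 start, just outside the promoter window. The peak of 251 bp in intron 1 (chr10:78043475-78043725) lay at the start of *Aire*, the neighbouring gene, so its assignment to *Dnmt3l* is uncertain. It lay 1188 bp from the principal start, of Dnmt3l-205, also outside the window. The nearest day 0 peak was 12278 bp from that start, and those of the doxycycline days were farther away. On days 2, 3, 6 and 9 no peak was called in the *Dnmt3l* gene body.

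The centres of the *Dnmt3l* intron 2 and *Dnmt3a* intron 6 regions are shown because they hold the widest peaks called in ESCs alone inside the 8 genes. Both are from the mm10 plus strand, the strand of both genes, at chr10:78048339-78048638 and chr12:3890039-3890338.
Dnmt3l intron 2: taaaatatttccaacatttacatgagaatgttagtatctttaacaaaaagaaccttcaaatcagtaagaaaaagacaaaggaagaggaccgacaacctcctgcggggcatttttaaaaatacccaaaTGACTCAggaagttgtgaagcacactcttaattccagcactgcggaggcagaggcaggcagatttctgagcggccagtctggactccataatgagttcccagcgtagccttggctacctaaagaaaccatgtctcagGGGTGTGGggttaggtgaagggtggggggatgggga
Dnmt3a intron 6: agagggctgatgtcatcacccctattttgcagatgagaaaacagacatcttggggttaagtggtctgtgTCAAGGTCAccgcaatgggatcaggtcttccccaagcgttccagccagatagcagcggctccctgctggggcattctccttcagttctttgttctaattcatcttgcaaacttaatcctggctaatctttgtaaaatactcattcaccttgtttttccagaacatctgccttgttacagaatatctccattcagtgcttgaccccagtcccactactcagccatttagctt
Capitals mark matches on either strand of TGANTCA, the AP-1 motif, and GGGNGTGG, a Klf motif, in *Dnmt3l*, and of TCAAGGTCA, the Esrrb motif, in *Dnmt3a*. The 300 bp centres of all merged regions hold these in 22.3%, 14.7% and 0.574%. Of the 81 regions, 1 held the Esrrb motif.

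**Figure D3:**
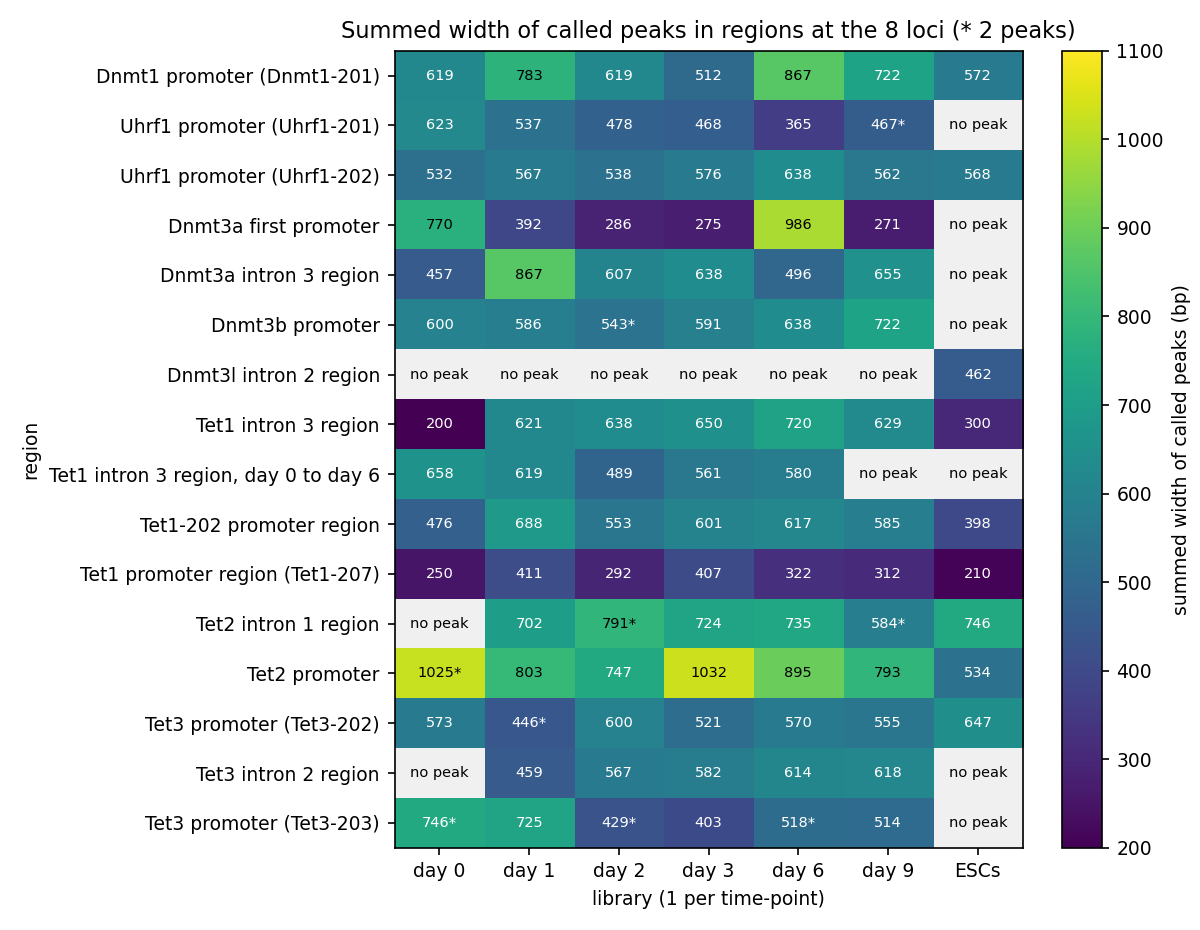
Summed width in bp of the called peaks (colour and number, an asterisk where 2 peaks were summed) in 16 promoter and intragenic regions (y axis) in each library (x axis), with grey cells where no peak was called. The *Dnmt3a*, *Dnmt3b*, Uhrf1-201 and Tet3-203 promoter regions have a peak in the 6 MEF-derived libraries and none in ESCs. The *Tet2* intron 1 and *Tet3* intron 2 regions have none on day 0.

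The TET genes each had a promoter region with a peak in every library. Introns of *Tet2* and *Tet3* also held regions without a day 0 peak that were called on every doxycycline day. The *Tet2* promoter region (chr3:133544018-133545171), over the start of the principal transcript Tet2-201, had 2 peaks of 716 and 309 bp on day 0, single peaks of 803, 747, 1032, 895 and 793 bp on days 1, 2, 3, 6 and 9, and 534 bp in ESCs. It was the only promoter region of *Tet2*, and the summed width was lowest in ESCs, where the peak covered under 50% of the region.

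A region in intron 1 of *Tet2* (chr3:133524345-133525265), 921 bp wide, had no peak on day 0 and one in each of the other 6 libraries. Its middle lay 19481 bp downstream of the nearest *Tet2* start. The peaks were 702, 724 and 735 bp on days 1, 3 and 6 and 746 bp in ESCs, with 2 peaks of 591 and 200 bp on day 2 and 2 of 379 and 205 bp on day 9. The ESC peak was wider than 94.2% of the peaks of that library, and the day 1 peak wider than 89.4%. The pattern of every doxycycline day and ESCs without day 0 held for 0.871% of all intragenic regions and for this 1 of the members' 35. It was the same under each of the 3 other settings on peak width and cover. The ESC library alone had a further intron 1 peak of 311 bp (chr3:133533537-133533847), and day 0 alone had 2 of 213 and 221 bp (chr3:133521097-133521309 and chr3:133531018-133531238).

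*Tet3* held the counterpart without an ESC peak. A region in intron 2 (chr6:83443326-83443963) had peaks of 459, 567, 582, 614 and 618 bp on days 1, 2, 3, 6 and 9 and none on day 0 or in ESCs. It lay between the starts of the gene, 1648 bp upstream of the Tet3-201 start. The pattern of every doxycycline day and neither day 0 nor ESCs held for 3.52% of all intragenic regions and for this 1 of the members' 35, and it was the same under the 3 other settings. The peaks were the wider the later the day, from 459 to 618 bp, with 1 library per day and no measure of the error of a width.

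The centres of the *Tet2* intron 1 and *Tet3* intron 2 regions are shown because they are the intragenic regions of the 8 genes with no day 0 peak and a peak on every doxycycline day. They are from the mm10 plus strand, opposite to both genes, at chr3:133524655-133524954 and chr6:83443495-83443794.
Tet2 intron 1: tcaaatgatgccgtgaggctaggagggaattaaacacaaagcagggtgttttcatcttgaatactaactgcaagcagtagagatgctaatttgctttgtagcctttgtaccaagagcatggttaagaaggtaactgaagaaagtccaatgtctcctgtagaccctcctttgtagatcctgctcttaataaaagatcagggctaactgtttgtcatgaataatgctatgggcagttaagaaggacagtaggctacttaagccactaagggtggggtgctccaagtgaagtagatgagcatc
Tet3 intron 2: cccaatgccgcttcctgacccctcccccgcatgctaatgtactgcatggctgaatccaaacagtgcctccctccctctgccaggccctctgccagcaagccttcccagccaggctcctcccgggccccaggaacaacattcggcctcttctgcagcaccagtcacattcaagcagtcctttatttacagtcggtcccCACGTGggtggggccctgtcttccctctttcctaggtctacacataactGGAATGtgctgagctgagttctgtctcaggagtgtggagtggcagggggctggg
The *Tet2* stretch held no match to the 11 motifs searched, and its CpG observed over expected ratio was 0.0759, against a median of 0.230 over all regions. Capitals in the *Tet3* stretch mark CACGTG, an E-box, and CATTCC, the Tead motif, on the opposite strand. The E-box lies in 4.97% and the Tead motif in 21.3% of the centres of all regions.

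*Tet3*, like *Uhrf1*, had no ESC peak in the region of its principal start and one in that of a downstream start. The ESC peak lay far beyond 1 kb from the principal start of *Tet3*, whereas at *Uhrf1* it was 627 bp away. The Tet3-203 start itself lay under a peak in 3 libraries. The region over the start of the principal transcript, Tet3-203 (chr6:83456132-83457194), had single peaks of 725, 403 and 514 bp on days 1, 3 and 9. It had 2 peaks on day 0 (269 and 477 bp), day 2 (229 and 200 bp) and day 6 (200 and 318 bp), and none in ESCs, where the nearest peak was 14446 bp away. That ESC peak lay in the region over the starts of Tet3-202 and Tet3-205 (chr6:83441297-83441978), which had peaks of 573 bp on day 0, 600, 521, 570 and 555 bp on days 2, 3, 6 and 9, 2 peaks of 242 and 204 bp on day 1, and 647 bp in ESCs. The other promoter region (chr6:83440560-83440775) had 216 bp on day 0 alone. In intron 3, 3 regions had a day 0 peak and no ESC peak, the most frequent (chr6:83423758-83424351) with 500, 293 and 359 bp on days 0, 1 and 2. The others were chr6:83412852-83413283 on day 0 and chr6:83435134-83435390 on days 0 and 2. The ESC library alone had a peak of 375 bp in the same intron (chr6:83421907-83422281).

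**Figure D4:**
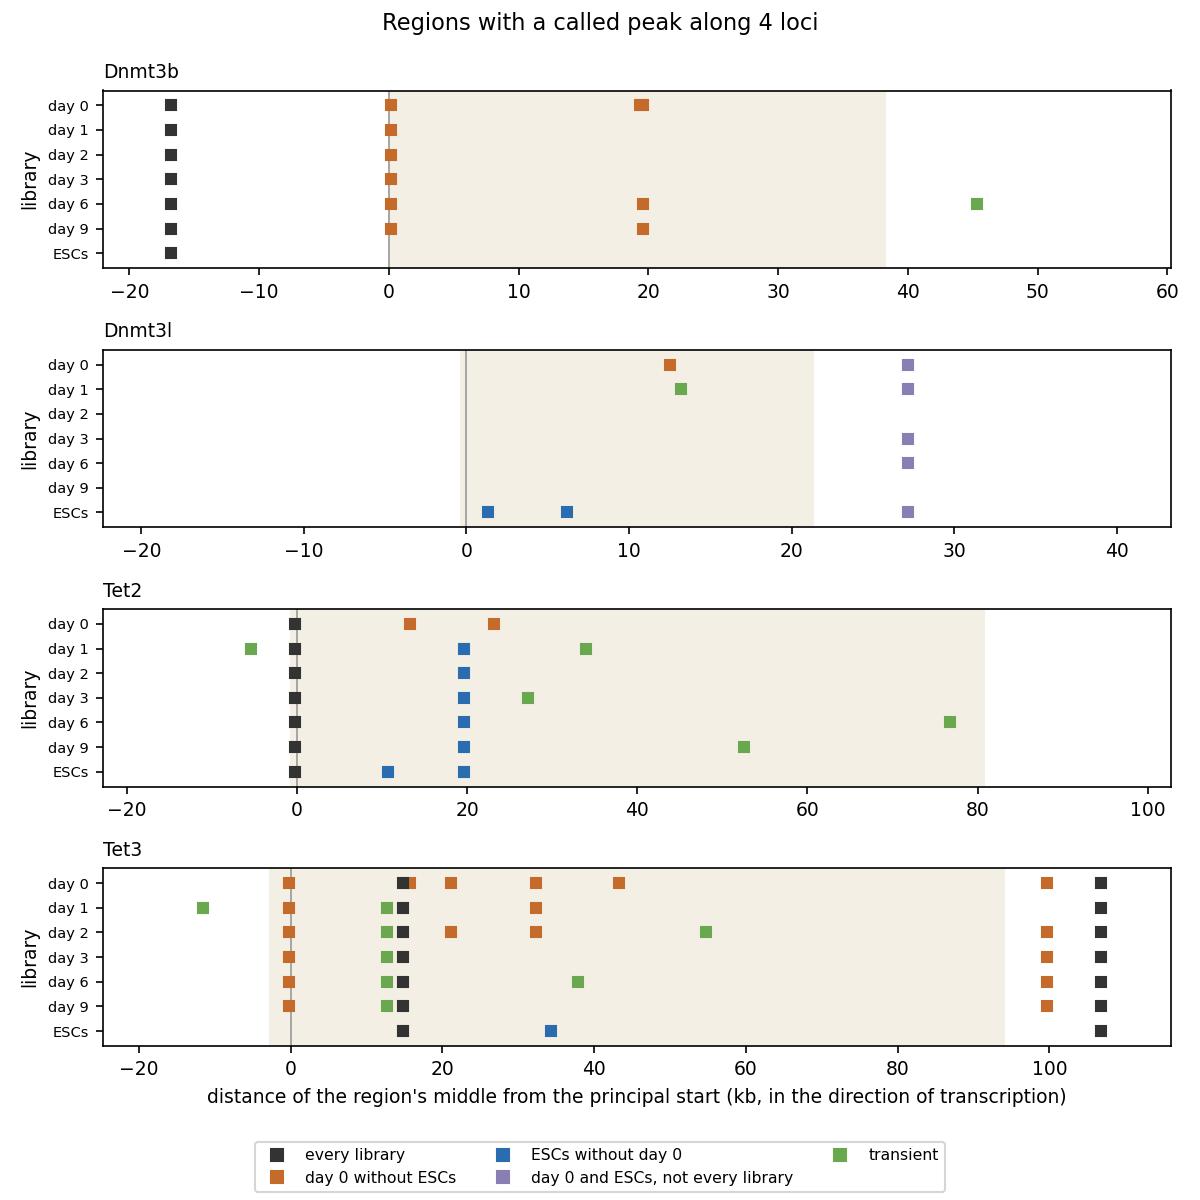
Regions with a called peak (squares, coloured by pattern) in each library (y axis) at *Dnmt3b*, *Dnmt3l*, *Tet2* and *Tet3*, placed by the distance of their middle from the start of the principal transcript in kb (x axis), with the gene body shaded. Within 1 kb of the principal start, *Dnmt3b* and *Tet3* have a peak in the 6 MEF-derived libraries, *Tet2* in all 7 and *Dnmt3l* in none.

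*Tet1* had no peak within 1 kb of the start of its principal transcript, Tet1-206, in any library, and peaks at 2 downstream starts in every library. The region at Tet1-202, in intron 2 (chr10:62865113-62865830), had peaks of 476 bp on day 0, 688, 553, 601, 617 and 585 bp on days 1, 2, 3, 6 and 9, and 398 bp in ESCs. Tet1-202 is annotated as a processed transcript and not as protein-coding. The region at Tet1-207 and Tet1-210, in intron 1 (chr10:62887059-62887556), had narrower peaks of 250, 411, 292, 407, 322 and 312 bp from day 0 to day 9 and 210 bp in ESCs. With peaks at least 300 bp wide it remained in 4 libraries. The other 3 promoter regions had peaks on days 0, 2, 3 and 9 (chr10:62885921-62886655), on day 3 alone (chr10:62886727-62887001) and on days 1, 3 and 6 (chr10:62892824-62893117).

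Intron 3 of *Tet1* held the only intragenic region of the 8 genes with a peak in every library (chr10:62843568-62844292). Its peaks were 200 bp on day 0, 621, 638, 650, 720 and 629 bp on days 1, 2, 3, 6 and 9, and 300 bp in ESCs. The day 0 peak had the smallest width in the list, and with peaks at least 300 bp wide the region had none on day 0. Another region of that intron (chr10:62850890-62851567) had 658 bp on day 0, 619, 489, 561 and 580 bp on days 1, 2, 3 and 6, and none on day 9 or in ESCs. The ESC library alone had a peak of 203 bp upstream of the principal start, still within the gene record (chr10:62903053-62903255).

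Many flanking regions lay at the starts of neighbouring genes, a share that was not counted for the flanks of all genes. Of the 23, 12 (52.2%) lay within 1 kb of the start of another protein-coding gene. Of the 12, 9 had a peak in every library, a pattern of 43.6% of the promoter regions of all protein-coding genes. The 9 were at the starts of *Ppan*, *Eif3g* and *S1pr2* beside *Dnmt1*, *Commd7* beside *Dnmt3b*, *Ccar1* and *Slc25a16* beside *Tet1*, *Bola3* beside *Tet3*, and *Plin3* and *Kdm4b* beside *Uhrf1*. Of the other 3, 2 further regions at *Plin3* had no ESC peak, and the region at *Icosl* beside *Dnmt3l* had none on days 2 and 9. Only 1 flanking region with a peak in every library lay far from any start, 12126 bp from that of *Dtnb*, upstream of *Dnmt3a* (chr12:3791674-3792334), with peaks from 212 bp on day 2 to 595 bp on day 1. No flanking region had a peak in ESCs and none on day 0.

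Regions with a peak in every library had the highest median CpG content of the patterns. Among regions with a peak in 6 libraries, the CpG observed over expected ratio ran from 0.0759 (*Tet2* intron 1) to 1.21 (*Dnmt3b* promoter). The 17 regions with a peak in every library had a median CpG observed over expected ratio of 0.833, against 0.219 for the 31 with a day 0 peak and no ESC peak, 0.199 for the 7 with the reverse and 0.261 for the 24 transient ones. Over all regions of the genome the medians of these patterns were 0.811, 0.210, 0.259 and 0.188. Of the 17, 6 were promoter regions of the members and 9 lay at starts of neighbouring genes. The *Tet1* intron 3 region, the only intragenic one, had the lowest ratio of the 17, 0.146. These values describe 1 sequence per region and are not replicates. Of the 11 motifs searched in the 300 bp centres on both strands, GGGCGG (Sp) was the most frequent, in 25 of 81 regions (30.9%) against 18.3% of all regions. Of these 25, 9 were promoter, 5 intragenic and 11 flanking regions. The shares of all regions were not matched for class. TGANTCA (AP-1) lay in 11 of 81 (13.6%) against 22.3%, and CATTCC (Tead) in 13.6% against 21.3%. The pluripotency motifs were rare or near their background, with ATGCAAAT (Oct) in 2.47% against 3.19%, ACAATG (Sox) in 12.3% against 16.5%, GGGNGTGG (Klf) in 13.6% against 14.7% and TCAAGGTCA (Esrrb) in 1.23% against 0.574%. CACGTG (E-box) lay in 7.41% against 4.97%, TTTNNCGC (E2F) in 4.94% against 2.97%, TGTGGTT (Runx) in 4 of 81 against 8342 of 104248 and AGGGGGCGC (part of the CTCF motif) in 1.23% against 0.849%. A match is a run of letters and does not show that a factor was bound.

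**Figure D5:**
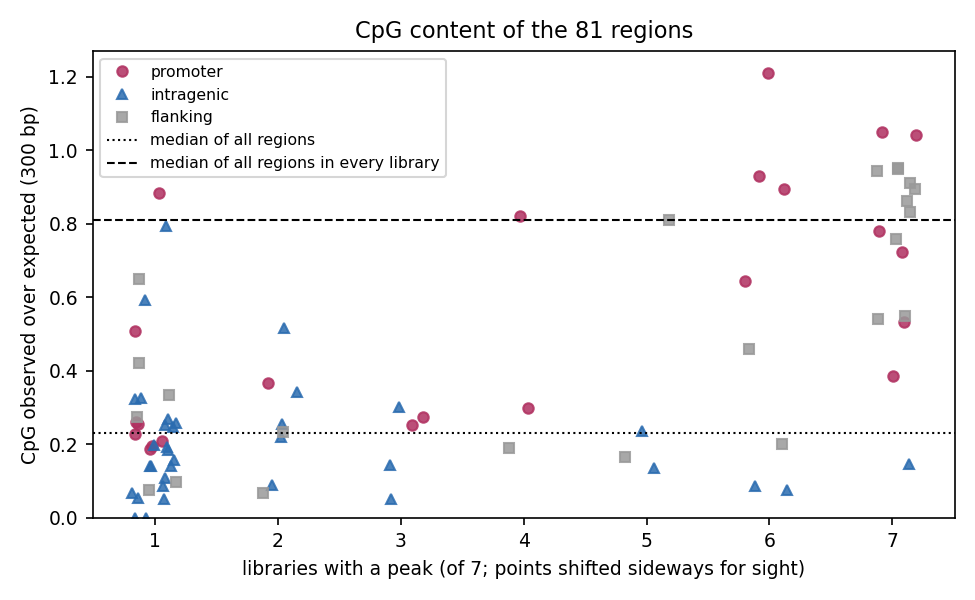
CpG observed over expected in the 300 bp centre of each of the 81 regions (y axis) against the number of libraries with a called peak (x axis, of 7), by class of region, with the medians of all regions (0.230) and of all regions with a peak in every library (0.811) as lines. Regions with a peak in 7 libraries lie mostly high, and the *Tet1* intron 3 region lies low among them at 0.146.

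The other genes of the pathway were counted at their promoters in the same way. Of 35, 24 (68.6%) had a promoter peak in every library, against 42.6% of all genes. The count ran from 30 on day 0 to 26 in ESCs, with 27 on day 2 and 29 on days 1, 3, 6 and 9. As shares these were 85.7% on day 0 and 74.3% in ESCs, against 59.7% and 50.3% of all genes. The 6 genes of methyl donor and 2-oxoglutarate supply had a peak in every library. So did 7 of the 8 readers of methylated CpG, with *Zbtb4*, a zinc finger reader, the exception without an ESC peak. Of the 8 partners of the methyltransferases, 6 had a peak in every library. *Cdca7*, a cofactor of the remodeller HELLS, had one in the day 0 and ESC libraries alone, and *Ehmt2*, a histone H3 lysine methyltransferase, on days 3 and 9 alone.

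Of the 12 demethylation and base excision genes, 5 (41.7%) had a peak in every library, near the 42.6% of all genes. *Smug1*, a uracil DNA glycosylase, had a peak in each MEF-derived library and none in ESCs. *Cxxc4*, whose protein binds TET2, had none on day 0 and one in each of the other 6 libraries. A promoter peak in ESCs and none on day 0 held for this 1 of the 35 (2.86%), against 2.72% of all genes. *Apobec1*, a cytidine deaminase, had a peak on days 0, 1, 3 and 6, and *Ogt*, the O-GlcNAc transferase that binds TET proteins, on days 0, 1, 6 and 9. *Dppa3*, a protein that protects the maternal genome from demethylation, had one on day 0 alone. *Gadd45b* had none in any library.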

How the data were processed

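ATAC-seq of 7 mouse libraries was used, 6 of MEF-derived cells and 1 of ESCs. Libraries were grouped by time-point, with 1 library in each. The authors cut reads to 50 bp (Trimmomatic) and aligned them to mm10 (Bowtie2, very sensitive, end to end). Mates were fixed in Samtools, and Picard served to drop duplicates and to bring all samples to a common depth. Peaks were called for each library by MACS2 without a model, with reads shifted and extended to 200 bp around the cut site (no peak is narrower than 200 bp), keeping q-values under 0.05. No versions of these tools are given in the sources used here. The deposited files give a chromosome, start and end for each peak, with no score, signal or count, so the depth behind a peak is unknown. The tools listed in the submitters' processing notes are the same, with deepTools added.

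Peaks were compared with GENCODE M21 genes on mm10, counting positions from 1. Peaks of all libraries were merged where they touched or overlapped, and an overlap of 1 bp or more counted. A promoter region lay within 1000 bp of any annotated transcript start of a member, and the principal transcript was the one with the best APPRIS tag. Background shares were taken over 21938 protein-coding genes and over 104248 merged regions of chromosomes 1 to 19, X and Y. Background regions were classed by the starts and bodies of all protein-coding genes. Intervals are exact (Clopper-Pearson, 95%) and cover counting error only. Overlaps were recounted with BEDTools 2.31.1, which gave the same merged regions, and tested on simulated data with 2000 peaks per list, of whose planted overlaps 100% were recovered. Sequence was read from RefSeq's GRCm38.p6, whose chromosomes are those of mm10. The CpG ratio and 11 motifs, searched on both strands, were taken from the 300 bp at the centre of each region. The software was Python 3.11.15, with scipy 1.17.1 for intervals, pysam 0.24.0 for sequence, numpy 2.4.6, and matplotlib 3.10.9 for figures.

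The members, the marker and pathway lists and the motifs were chosen with earlier results of these data known. Named were every promoter region, every intragenic region with a peak in every library or in only one of day 0 and ESCs, transient regions with a peak in at least 3 of the 5 doxycycline libraries, and flanking regions with a peak in every library or at the start of another gene. Of the 8 intragenic regions with a sequence that the rule allows, 4 are shown, those with peaks in the most libraries and the widest of the ESC library alone, and the *Dnmt3b* promoter was added. Of the pathway list, 1 gene counted in the totals is not reported here by name. No test was made between libraries. The alternatives were peaks at least 300 bp wide, the same number of widest peaks per library, other promoter windows and flanks, merging within 300 bp, a minimum cover, the nearest start, and the 5 libraries without days 2 and 9.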

Additional observations from a re-analysis of the deposited data

How the results depend on the processing

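No paired analysis was possible because no group holds more than 1 library. Of 194 values recomputed under other settings, 151 stayed within 1.5 times the reported value and 43 did not. Of the 16 regions plotted by peak width, 12 kept their pattern under all 3 settings on peak width and cover. Among these, the *Dnmt3a* and Tet3-203 promoters were counted in 2 libraries in place of 6 with peaks that together cover at least 50% of the region. The regions that did not keep their pattern were the *Tet2* and Tet3-202 promoters, the Tet1-207 region and the *Tet1* intron 3 region. They left the pattern of every library under at least 1 of the settings. The Tet3-202 promoter kept its day 0 and ESC peaks and lost that of day 1. With the 5′ end of the gene record alone, the members with a promoter peak were 4 on each MEF-derived day and 2 in ESCs. With peaks at least 300 bp wide, the loci held 52 regions, 21 intragenic and 15 flanking, of which 33 had a peak on day 0 and 23 on day 9, 9 were in every library and 12 were transient. Promoter regions with a peak in all but the ESC library, counted after seeing the data, numbered 1 in place of 4 with peaks at least 300 bp wide. With the same number of widest peaks, there were 15 promoter and 22 intragenic regions, 27 with a day 0 peak, 11 in every library, 13 on day 0 without ESCs, 12 in ESCs without day 0 and 15 transient. With 5 kb beside the gene body there were 4 flanking regions, and with 50 kb there were 56. With 5 kb, regions with a peak numbered 21, 27, 25 and 21 on days 2, 3, 6 and 9 and 16 in ESCs, 8 were in every library and 1 was on day 0 and in ESCs but not throughout. With regions whose nearest start is the member's, these were 20, 26, 25 and 21, 14 in ESCs, 7 in every library and 1. Without days 2 and 9, 1 was on day 0 and in ESCs but not throughout. Leaving out the ESC library, an alternative chosen after seeing the data, regions open throughout numbered 24 in place of 17, and leaving out day 0 they numbered 18. The depth behind each peak is unknown, which limits every statement on a missing peak.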
